A study of Mus musculus with 16 samples.

Results

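The genes described here are those of cholesterol synthesis and of its control by the sterol regulatory element binding proteins (SREBPs), together with genes of intracellular sterol transport, sterol export and fatty acid synthesis. The list was set by gene symbol and holds 38 genes, among the 7565 genes that were tested on the array in hippocampal RNA. Of the 38, 35 had an annotated probe set of their own and 27 of these passed the filter on intensity and were tested. The other 8 with a probe set, Idi1, Fdps, Dhcr7, Srebf2, Stard4, Abca1, Nr1h3 and Lpin1, lay below the filter. Tm7sf2 shared its only probe set with another gene, and Acat2 and Nr1h2 were not analysed here.

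Cholesterol is built from acetyl-CoA in a first stretch of steps that ends in isoprenoids, the mevalonate arm, and a second stretch that joins them to squalene and turns squalene into sterols. When membrane sterol is low, the escort protein SCAP carries SREBPs to the Golgi, where proteases release the part of the protein that enters the nucleus and switches on genes of synthesis, whereas INSIG proteins hold SCAP back when sterol is high. Lipoprotein cholesterol barely crosses the blood-brain barrier, so the brain makes its own, and neurons dispose of it as a hydroxylated sterol made by Cyp46a1.

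The study asked which hippocampal genes respond to seizures and which of these responses need MEK, the kinase that activates ERK. All mice were 3-month-old male wildtype C57BL/6 mice, 1 hippocampus was put on 1 exon array, which gave 16 arrays in 5 groups, 4 from untreated mice and 3 from each of the injected groups. Kainic acid, a glutamate receptor agonist that triggers seizures, was injected at 20 mg/kg, the MEK inhibitor SL327 at 50 mg/kg, and mice given both had received the inhibitor 1 h ahead of kainic acid. The hippocampus was dissected 1 h after the seizures began, or at the matching time. The vehicle group is labelled as injected with PBS whereas the methods speak of DMSO with PBS, so its solvent is not certain, and if it was PBS alone the effects of SL327 and of DMSO cannot be told apart. All values are log2 intensities, so a difference of 1 is a doubling, and each gene is given by its probe set of the highest mean. In whole tissue, fewer cells of a type and less RNA per cell cannot be told apart.

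The arrays were alike in overall level, with medians from 7.32 to 7.39, and the mean correlation of an array with those of the same treatment was 0.958 to 0.975. The seizure check gene Npas4 lay at 12.03, 13.11 and 12.89 with kainic acid and at 7.65, 8.12 and 7.42 with vehicle. Fos lay at 8.73, 10.65 and 10.37 with kainic acid and at 6.86, 6.93 and 7.03 with vehicle. In mice given SL327 with kainic acid Npas4 lay at 11.99, 8.13 and 12.27, and Fos at 9.29, 7.38 and 8.95. Replicate 2 of that group thus lay close to the vehicle mice in both genes. In Fos, kainic acid replicate 1 lay below replicates 1 and 3 given both agents. Arc lay at 12.29, 12.40 and 12.35 with kainic acid, at 9.90, 9.99 and 9.90 with vehicle and at 10.53, 9.46 and 10.43 with both agents. Counts of listed genes called in comparisons with the mice given both agents are therefore also given without replicate 2 of that group. Counts of further pathway genes and of markers are given only with it. All 7 neuron markers were tested, with Snap25 from 11.62 to 11.85. Choroid plexus markers varied between arrays of a group, with Ttr from 8.97 to 12.55.

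To show what the genes that kainic acid raised carry at their start sites, the promoter windows of 4 of them are given. They are the pair with the largest rise, the only raised gene whose window held the sterol response element core, and the INSIG gene, and apart from Hmgcs1 they were chosen after their values were seen. Each is the RefSeq window of GRCm38.p6 from 250 bases before to 50 bases after the annotated start, 300 bases in all, written 5′ to 3′ on the gene's strand. Capitals mark the NF-Y box CCAAT on either strand and, in Hmgcs1, the sterol response element core TCACCCCAC.
Msmo1, chr8:64733529-64733828, minus strand: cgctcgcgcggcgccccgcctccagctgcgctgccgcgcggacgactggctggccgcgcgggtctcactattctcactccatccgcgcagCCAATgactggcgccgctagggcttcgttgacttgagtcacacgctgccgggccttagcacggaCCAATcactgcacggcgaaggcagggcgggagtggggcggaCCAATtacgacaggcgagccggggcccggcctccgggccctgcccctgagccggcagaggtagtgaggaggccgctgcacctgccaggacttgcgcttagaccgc
Cyp51, chr5:4104648-4104947, minus strand: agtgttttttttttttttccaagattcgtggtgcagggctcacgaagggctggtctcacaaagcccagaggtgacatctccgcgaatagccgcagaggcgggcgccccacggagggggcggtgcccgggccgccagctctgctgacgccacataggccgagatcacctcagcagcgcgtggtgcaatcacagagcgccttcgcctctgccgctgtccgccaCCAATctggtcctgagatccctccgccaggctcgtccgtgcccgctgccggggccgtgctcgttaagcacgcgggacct
Hmgcs1, chr13:119690101-119690400, plus strand: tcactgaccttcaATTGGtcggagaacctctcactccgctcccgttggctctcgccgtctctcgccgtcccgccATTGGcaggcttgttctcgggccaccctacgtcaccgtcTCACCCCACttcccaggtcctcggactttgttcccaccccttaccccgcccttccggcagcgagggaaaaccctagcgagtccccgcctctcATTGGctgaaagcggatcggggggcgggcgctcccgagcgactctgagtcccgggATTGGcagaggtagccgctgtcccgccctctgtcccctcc
Insig1, chr5:28071162-28071461, plus strand: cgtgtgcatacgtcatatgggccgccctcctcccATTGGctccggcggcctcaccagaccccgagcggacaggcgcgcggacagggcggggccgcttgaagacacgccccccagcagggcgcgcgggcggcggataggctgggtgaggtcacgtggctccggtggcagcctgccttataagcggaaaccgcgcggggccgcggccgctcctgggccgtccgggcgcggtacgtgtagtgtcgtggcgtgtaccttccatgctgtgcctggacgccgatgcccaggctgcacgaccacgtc

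The core was searched as TCACNCCAC on both strands and, of the 30 listed genes that had a window, only Hmgcs1 held it, with its first base at position -137 from the start. It was in 1.24% of all 32851 windows and in those of 1.44% of the 27025 genes with a window, and the shares that follow are of these genes, since a gene can have several windows. The window of Hmgcs1 held 4 NF-Y boxes, that of Msmo1 3, and those of Cyp51 and Insig1 1 each. Genes with an SREBP site often carry boxes for the general factors NF-Y and Sp1 nearby. CCAAT was in the window of 22 of the 30 genes, of 14 of the 15 synthesis genes with a window and of all 7 raised genes with one, against 41.1% of all genes. GGGCGG, the Sp1 box, was in 23 of the 30, 14 of the 15 and all 7, against 38.2%. The GC content of the 7 raised genes' windows was 58.7 to 71.7%, and the median over all windows was 52.7%, so base composition moved with these counts and its part was not tested. The E-box CACGTG was in 6 of the 30 genes and in 3 of the 7 raised ones (Hsd17b7, Sc5d and Insig1), against 8.09%. The full cAMP response element TGACGTCA, a site of CREB, was in none of the 30 genes against 2.03%, its core TGACG in 10 of the 30 and 5 of the 7 raised ones against 23%, and the CArG box of SRF in none of the 30 against 1.81%. These are matches of letters within 300 bases and were not tested as sites. Other forms of the sterol response element were not searched, so a window without this core is not shown to lack one.

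After kainic acid, 8 of the 27 tested genes were higher than with vehicle and 0 were lower at an adjusted p under 0.05 in limma. Over all 8520 probe sets tested, 7.41% were higher and 12.2% lower. The rise was in the enzymes of synthesis, with 7 of 13 higher, 2 of 4 in the mevalonate arm and 5 of 9 in the sterol arm. Of the 4 tested genes of SREBP control 1 was higher, and of the 10 tested genes of transport, export, turnover and fatty acid synthesis 0 were. The median change of the 27 genes was 0.09, that of the 13 synthesis genes 0.38 and that of all probe sets -0.05. The 3 kainic acid arrays lay above all 3 vehicle arrays in 12 of the 27 genes and below them in 4, against 13.5% and 27.2% of all probe sets. All 8 raised genes were above the array's median in each of the 16 arrays, so none passed the filter through the kainic acid arrays alone.

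**Figure D1:**
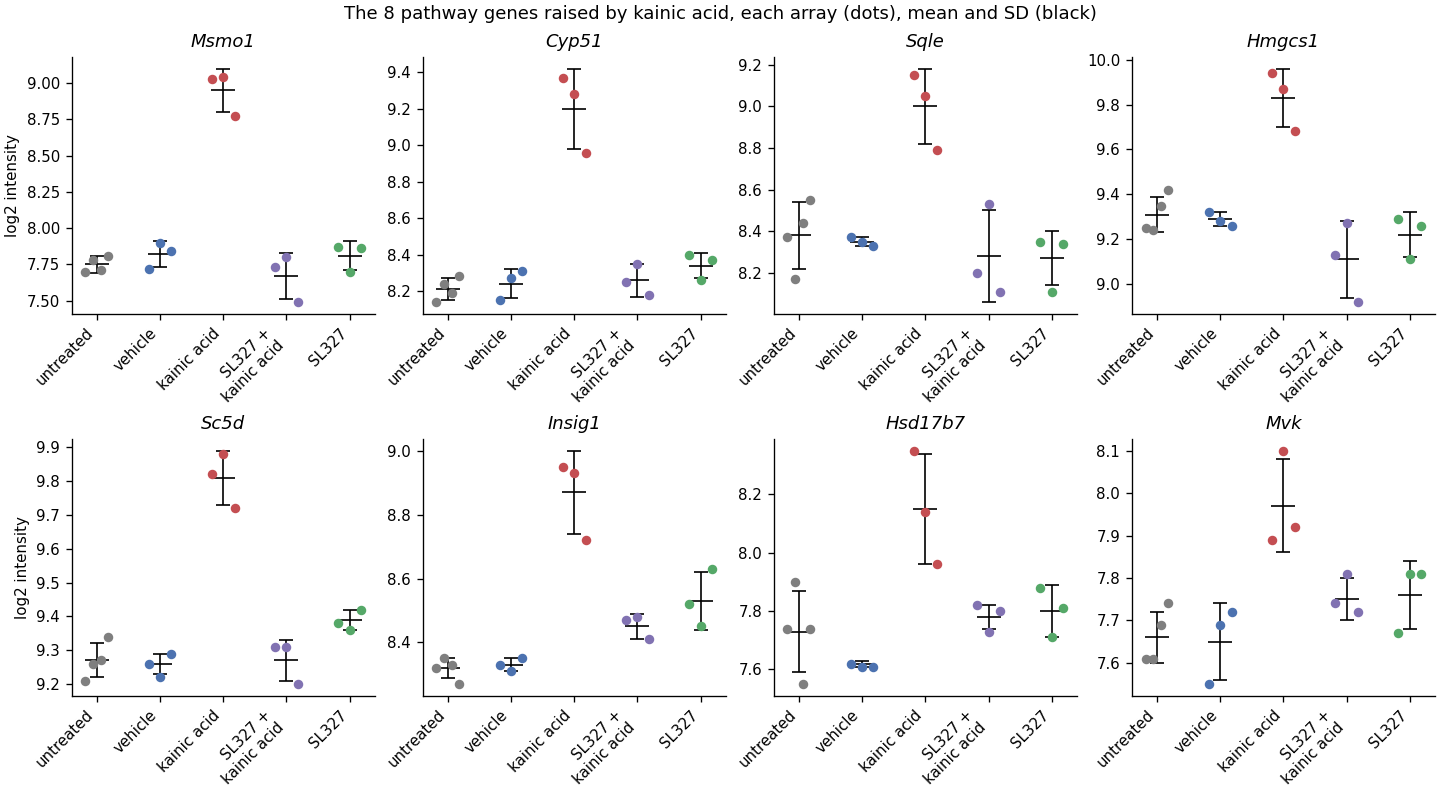
Log2 intensity (vertical axis, a range of its own for each gene) of the 8 genes that kainic acid raised, in the 5 groups. Dots are single arrays, in the order of their replicate number, and black bars are the mean and SD. In every panel the 3 kainic acid arrays lie above all 13 other arrays.

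Among enzymes of the mevalonate arm, Hmgcs1 (probe set 7005797), the synthase that makes HMG-CoA, lay at 9.32, 9.28 and 9.26 with vehicle and at 9.94, 9.87 and 9.68 with kainic acid. With SL327 and kainic acid it lay at 9.13, 9.27 and 8.92. All kainic acid arrays were thus the highest of the series, and those with both agents reached below every vehicle array in 2 of 3 mice. The rise was 0.55 (SE 0.09, a fold of 1.46, limma adjusted p = 0.000609), and the level with both agents was lower than with kainic acid by a change of -0.72 (SE 0.09, limma adjusted p = 7.35e-05).

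Mvk (6933602), which phosphorylates mevalonate, lay at 7.55, 7.69 and 7.72 with vehicle, at 7.89, 8.10 and 7.92 with kainic acid and at 7.74, 7.81 and 7.72 with both. The kainic acid arrays overlapped with neither of the other groups but were close, with 7.81 the highest array with both agents and 7.89 the lowest with kainic acid, whereas vehicle and both agents met at 7.72. Mvk had the smallest rise of the 8, 0.32 (SE 0.07, limma adjusted p = 0.00403), and was lower with both agents than with kainic acid by a change of -0.22 (SE 0.07, limma adjusted p = 0.0336). Mvd (6985925), the mevalonate diphosphate decarboxylase, lay at 7.84, 7.79 and 7.86 with vehicle and at 8.14, 8.07 and 7.89 with kainic acid. These arrays did not overlap, and the difference of 0.21 (95% interval 0.04 to 0.37) did not pass the test (limma adjusted p = 0.0721).

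The 2 probe sets of Pmvk, the kinase after Mvk, did not move alike. The brighter one (6911094) varied widely in every group, lay at 7.26, 7.50 and 7.80 with vehicle and at 7.31, 7.71 and 7.22 with kainic acid, and its difference was -0.11 (95% interval -0.80 to 0.59). The dimmer one (6899252) lay at 6.87, 6.86 and 6.86 with vehicle, at 7.68, 8.03 and 7.86 with kainic acid, and at 6.92 ± 0.07 (SD, n = 3) with both agents. It passed the filter through the 3 kainic acid arrays alone, so that its kainic acid arrays had to be high and no test of it is given. Which of the probe sets follows the transcript of Pmvk was not tested.

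In the sterol arm the largest rises were found. Msmo1 (6982921), the oxidase that removes methyl groups from early sterols, lay at 7.72, 7.90 and 7.84 with vehicle, at 9.03, 9.04 and 8.77 with kainic acid and at 7.73, 7.80 and 7.49 with both agents. No array outside the kainic acid group came above 7.90. The rise was 1.13 (SE 0.09, a fold of 2.19, limma adjusted p = 8.41e-07) and the change from kainic acid to both agents -1.28 (SE 0.09, limma adjusted p = 4.7e-07).

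Cyp51 (6935927), the lanosterol demethylase, lay at 8.15, 8.27 and 8.31 with vehicle, at 9.37, 9.28 and 8.96 with kainic acid and at 8.25, 8.35 and 8.18 with both. The arrays with both agents fell among the untreated and vehicle arrays apart from the 8.35 of replicate 2, which was above them. Its rise was 0.96 (SE 0.09, a fold of 1.95, limma adjusted p = 4.39e-06), and the change from kainic acid to both agents was -0.95 (SE 0.09, limma adjusted p = 7.24e-06).

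Sqle (6830761), squalene epoxidase, a slow step of the arm, lay at 8.37, 8.35 and 8.33 with vehicle, at 9.15, 9.05 and 8.79 with kainic acid and at 8.20, 8.53 and 8.11 with both agents. Replicate 2 was the highest of the arrays with both agents here, below every kainic acid array. Sqle rose by 0.65 (SE 0.12, limma adjusted p = 0.00189), and the change from kainic acid to both agents was -0.72 (SE 0.12, limma adjusted p = 0.00115). Its dimmer probe set (6830763), which lay below the filter, had 4.90, 4.78 and 4.89 with vehicle, 7.35, 7.34 and 6.63 with kainic acid, 4.66, 5.02 and 4.72 with both agents and 3.61, 4.41 and 3.86 with SL327. Both probe sets of Sqle thus had their highest arrays in the kainic acid mice, and the dimmer one had its lowest in the mice given SL327 alone.

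Sc5d (6994935), the lathosterol oxidase near the end of the pathway, was among the tightest, with 9.26, 9.22 and 9.29 with vehicle, 9.82, 9.88 and 9.72 with kainic acid and 9.31, 9.31 and 9.20 with both. It rose by 0.55 (SE 0.05, limma adjusted p = 4.4e-06), and the change from kainic acid to both agents was -0.53 (SE 0.05, limma adjusted p = 8.19e-06). Hsd17b7 (6764007), a sterol ketone reductase, lay at 7.62, 7.61 and 7.61 with vehicle, at 8.35, 8.14 and 7.96 with kainic acid and at 7.82, 7.73 and 7.80 with both agents. Its arrays with both agents lay above all vehicle arrays and within the range of the untreated mice, 7.55 to 7.90. It rose by 0.53 (SE 0.09, limma adjusted p = 0.0011), with a change of -0.36 (SE 0.09, limma adjusted p = 0.0136) from kainic acid to both agents.

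The other tested sterol enzymes did not pass the test, although all of them had a difference above 0. Fdft1, squalene synthase, differed by 0.20 (95% interval 0.05 to 0.35, limma adjusted p = 0.0648), Lss, lanosterol synthase, by 0.19 (-0.03 to 0.42), Nsdhl, a sterol dehydrogenase, by 0.28 (0.07 to 0.49) and Ebp, a sterol isomerase, by 0.38 (-0.01 to 0.76). Fdft1, Nsdhl and Ebp had all kainic acid arrays above all vehicle arrays. In mice given both agents Nsdhl and Ebp lay at 10.23 ± 0.15 and 7.98 ± 0.33 (SD, n = 3) against 10.01 ± 0.12 and 7.41 ± 0.10 with vehicle, differences of 0.22 and 0.58 that did not pass the test (limma adjusted p = 0.349 and 0.153). The untreated mice lay at 10.23 ± 0.16 and 7.79 ± 0.37 (SD, n = 4) in these genes, so the vehicle mice were the lowest group in both.

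**Figure D2:**
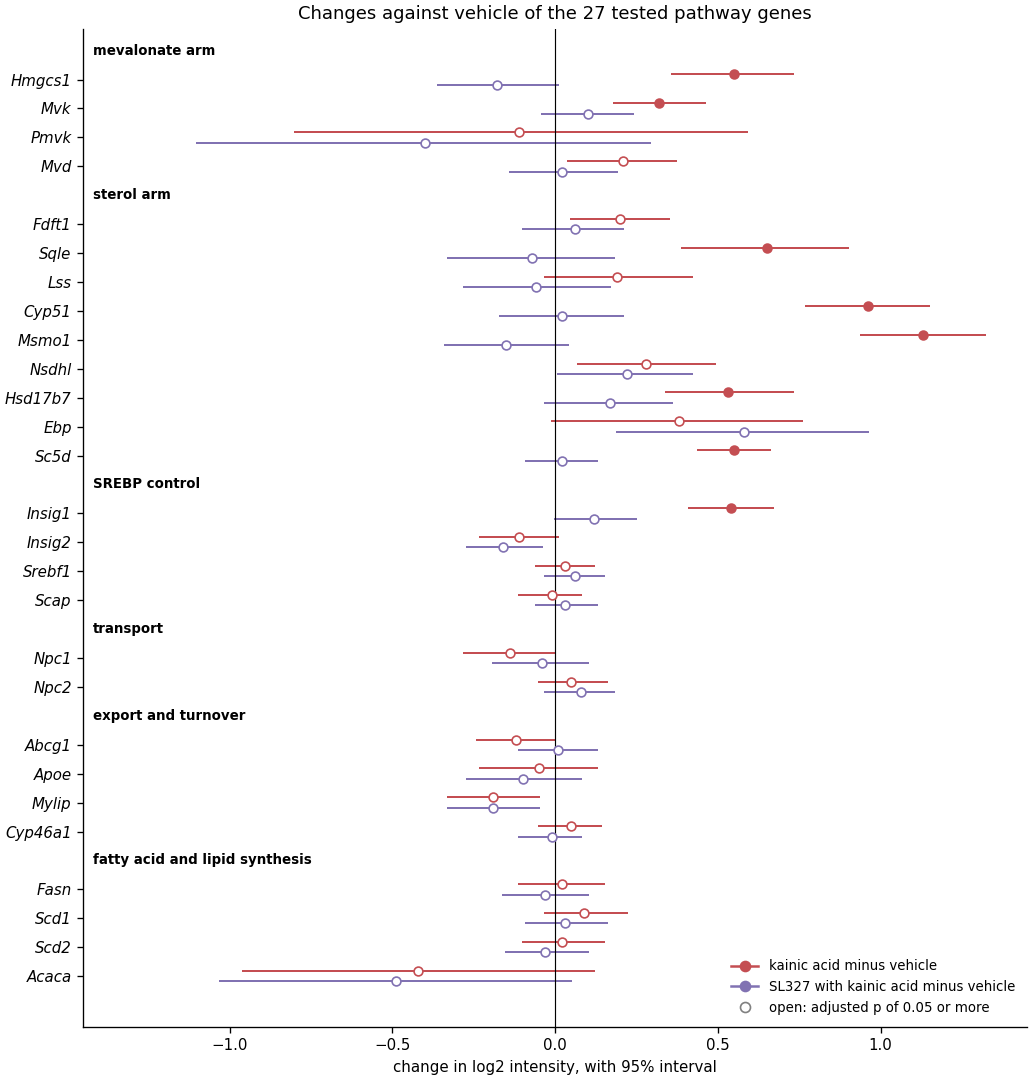
Change in log2 intensity against vehicle (horizontal axis, with 95% intervals) of the 27 tested genes, grouped by role (vertical axis). Red is kainic acid and purple SL327 with kainic acid, filled points passed an adjusted p of 0.05 in limma and open points did not. The 8 filled points are all red, 7 of them in the synthesis arms, and the other one is Insig1.

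Of the genes that control SREBPs, Insig1 (6929510), which holds SCAP back and is itself switched on by SREBPs, was the 1 that rose. It lay at 8.33, 8.31 and 8.35 with vehicle, at 8.95, 8.93 and 8.72 with kainic acid, at 8.47, 8.48 and 8.41 with both agents and at 8.52, 8.45 and 8.63 with SL327. The arrays of both groups given SL327 lay above all untreated and vehicle arrays and below all kainic acid arrays. The rise after kainic acid was 0.54 (SE 0.06, limma adjusted p = 2.82e-05) and the change from kainic acid to both agents -0.41 (SE 0.06, limma adjusted p = 0.000418). With SL327 alone the difference to vehicle was 0.20 (SE 0.06, limma adjusted p = 0.0652), which did not pass the test.

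Its relative Insig2 (6761733) lay at 8.46 ± 0.02 with vehicle and 8.35 ± 0.06 with kainic acid (SD, n = 3), a difference of -0.11 (95% interval -0.23 to 0.01). The escort Scap differed by -0.01 (-0.11 to 0.08) and Srebf1, which encodes the SREBP of fatty acid synthesis and a sterol form, by 0.03 (-0.06 to 0.12). None of the 3 passed the test. Srebf2, which encodes the SREBP of cholesterol synthesis, lay below the filter, at 6.71, 6.89 and 6.78 with vehicle, at 7.17, 6.91 and 6.94 with kainic acid and at 6.63, 6.62 and 6.64 with both agents.

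The array is a measure of transcript level, and neither SREBP cleavage nor sterols were measured. None of the tested genes of sterol handling beyond synthesis passed the test after kainic acid. In transport out of lysosomes, Npc1 differed by -0.14 (95% interval -0.28 to -0.00, limma adjusted p = 0.145) and Npc2 by 0.05 (-0.05 to 0.16). In export and turnover, the efflux pump Abcg1 differed by -0.12 (-0.24 to -0.00), the lipoprotein Apoe by -0.05 (-0.23 to 0.13), the neuronal cholesterol hydroxylase Cyp46a1 by 0.05 (-0.05 to 0.14) and Mylip, a ligase that marks lipoprotein receptors for breakdown, by -0.19 (-0.33 to -0.05, limma adjusted p = 0.0515). Against the untreated mice in place of vehicle, Npc1, Abcg1, Apoe, Mylip and Cyp46a1 were lower after kainic acid, with changes of -0.20, -0.21, -0.27, -0.21 and -0.12 and limma adjusted p of 0.00802 to 0.0396. In Apoe and Cyp46a1 the vehicle mice already lay below the untreated mice, by changes of -0.22 and -0.17 that did not pass the test. The share of all probe sets lower than in untreated mice is not given here, so these calls are not read as a result about the list.

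Fatty acid synthesis is the other branch that SREBPs serve, and none of its 4 tested genes passed the test. Fatty acid synthase Fasn differed by 0.02 (95% interval -0.11 to 0.15), the desaturases Scd1 and Scd2 by 0.09 (-0.03 to 0.22) and 0.02 (-0.10 to 0.15), and the acetyl-CoA carboxylase Acaca by -0.42 (-0.96 to 0.12). Acaca was uncertain, since its 3 tested probe sets differed in sign (-0.42, 0.43 and -0.20) and its arrays spread widely.

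**Figure D3:**
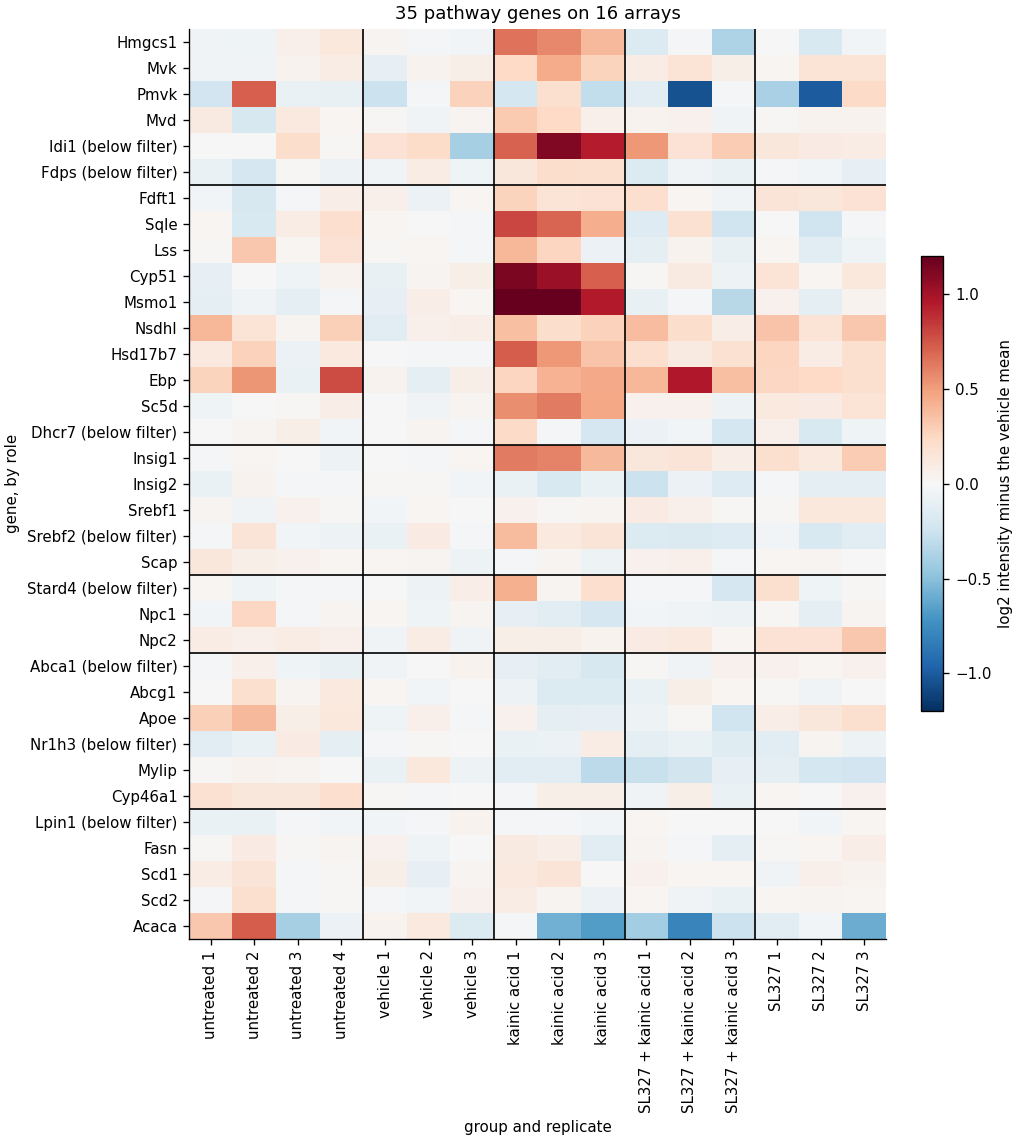
Log2 intensity minus the vehicle mean for the 35 genes with a probe set (rows, by role) on the 16 arrays (columns, by group and replicate). Red is above and blue below the vehicle mean, and the colour scale ends at 1.2 in both directions. The 8 raised genes are red in all 3 kainic acid columns and pale or blue in the columns of SL327 with kainic acid. There the means of Ebp, Idi1 and Nsdhl lie above the vehicle mean by 0.58, 0.33 and 0.22, differences that did not pass the test.

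Of the 8 genes below the filter, Idi1, Fdps, Srebf2 and Stard4 lay above vehicle after kainic acid, and of these only Idi1 passed a fit made without the filter. Idi1, the isomerase of isopentenyl diphosphate, was above the array's median in 2 arrays, both from kainic acid mice. It lay at 6.69, 6.74 and 6.12 with vehicle, at 7.23, 7.63 and 7.46 with kainic acid and at 7.04, 6.69 and 6.82 with both agents. In the fit without the filter it rose by 0.92 (SE 0.14, limma adjusted p = 0.00096 over 15417 probe sets) and changed by -0.59 (SE 0.14, limma adjusted p = 0.0179) from kainic acid to both agents. Of all probe sets in that fit, 4.92% were higher after kainic acid, and 4.09% were lower with both agents than with kainic acid.

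In the same fit Fdps, farnesyl diphosphate synthase, differed after kainic acid by 0.18 (SE 0.06, limma adjusted p = 0.0547), Srebf2 by 0.21 (SE 0.08, limma adjusted p = 0.0848) and Stard4, a sterol carrier of the cytosol, by 0.22 (SE 0.09, limma adjusted p = 0.138), none of which passed the test. With both agents these 3 were lower than with kainic acid, with changes of -0.28, -0.37 and -0.29. Dhcr7, which makes cholesterol from its last precursor, differed by 0.00 (SE 0.09), and Nr1h3 and Lpin1 each by -0.02 (SE 0.06 and 0.04). Abca1, the main sterol efflux pump, had all its kainic acid arrays, 7.27, 7.23 and 7.18, below the other 13, and its difference of -0.14 (SE 0.05, limma adjusted p = 0.0593) did not pass.

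With SL327 ahead of kainic acid, 0 of the 27 genes passed the test against vehicle in either direction, where 0.681% of all probe sets were higher and 0.188% lower. Npas4 and Fos did not pass it either, with differences of 3.07 (SE 0.76, limma adjusted p = 0.0789) and 1.60 (SE 0.47, limma adjusted p = 0.127). The count of 0 thus cannot show that the listed genes were at the vehicle level. Of the 27 genes, 4 had an unadjusted p under 0.05 in limma, and the smallest adjusted p was 0.153 (Ebp). The share of all probe sets at that unadjusted cut is not given here, so the 4 are not read as a result about the list. Without replicate 2 of the mice given both agents, 0 of the 27 again passed the test against vehicle. Compared with kainic acid alone, 8 of the 27 were lower with both agents and 0 higher, where 5.86% of all probe sets were lower and 13.1% higher, and without replicate 2 the counts were again 8 and 0. This comparison and that of kainic acid with vehicle share the kainic acid arrays, so that a high array there moves both.

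Whether SL327 altered the response to kainic acid was tested directly as the interaction, the response under the inhibitor less the response in its absence. It passed the test below 0 in 7 of the 27 genes and above 0 in 0, where 3.78% and 1.98% of all probe sets did, and without replicate 2 of the mice given both agents the counts were again 7 and 0. The interaction was -1.27 in Msmo1 (SE 0.12, limma adjusted p = 3.26e-05), -1.05 in Cyp51 (SE 0.13), -0.66 in Hmgcs1 (SE 0.12) and in Sc5d (SE 0.07), -0.64 in Sqle (SE 0.17, limma adjusted p = 0.0398), -0.61 in Insig1 (SE 0.09) and -0.55 in Hsd17b7 (SE 0.13). Mvk was the raised gene that did not pass it, at -0.32 (SE 0.09, limma adjusted p = 0.0548), and it passed in 6 alternatives. For Sqle the call was lost in 13 of 27 alternatives.

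The methods define classes of genes raised by kainic acid. A gene is fully dependent on MEK if significantly lower with both agents than with kainic acid but not significantly higher than with vehicle. The class does not require a return to the vehicle level. In Insig1 and Hsd17b7 all arrays with both agents lay above all vehicle arrays. All 8 raised genes were fully dependent, also without replicate 2 of the mice given both agents, and of the 631 probe sets raised on the whole array 71.8% were, while 6.34% were partially dependent, 5.23% independent and 16.6% in neither class. The difference to vehicle with both agents was -32.8 to 32.1% of that with kainic acid, with a median of 2.39%. It was highest in Mvk, at 32.1%, in Hsd17b7, at 31.6%, and in Insig1, at 23%, and lowest in Hmgcs1, at -32.8%. Since the vehicle arrays stand in both parts of this ratio, their spread moves both. The paper could not classify part of its moderately induced genes for want of power, and focused on genes above a cut on the rise. Of the 8 genes only Msmo1 (1.13) and Cyp51 (0.96) reached that cut, and the others rose by 0.32 to 0.65. In those others a rise with both agents that did not pass the test need not mean that no response was left.

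The spread within groups was followed array by array. The median of the 8 above the vehicle mean was 0.69, 0.61 and 0.42 in the kainic acid mice, and replicate 3 was the lowest kainic acid array in 7 of the 8 genes. In mice given both agents the median was 0.03, 0.11 and -0.06. Npas4 was high in replicates 1 and 3 of that group, as given above, and the median of the raised genes lay no more than 0.11 from the vehicle level in all 3. With SL327 alone the median was 0.09, 0.06 and 0.14, and in the untreated mice -0.04 to 0.08.

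SL327 alone against vehicle raised 1 of the 27 genes and lowered 0, where 5.48% of all probe sets were higher and 0.833% lower. The gene was Npc2 (6802349), the sterol carrier within lysosomes, which lay at 7.90, 8.03 and 7.90 with vehicle and at 8.11, 8.11 and 8.26 with SL327. The rise was 0.22 (SE 0.05, limma adjusted p = 0.0222), a fold of 1.16. It rested on vehicle replicates 1 and 3 and on SL327 replicate 3, since 0 genes passed without any 1 of them, and the untreated mice lay at 8.02 ± 0.02 (SD, n = 4), between these groups. Against the untreated mice the difference of Npc2 was 0.14 and did not pass (limma adjusted p = 0.0891). Choroid plexus markers were at median shifts of 0.49 to 1.56 in the SL327 arrays and of -0.42 to 0.73 in the vehicle arrays, with 0 of 4 passing the test, and their part in the level of Npc2 was not tested.

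Among mice that all had SL327, 0 of the 27 genes passed the test for kainic acid, and 0% of all probe sets were higher and 0% lower. The seizure check genes did not pass either, with differences of 2.60 in Npas4 (SE 0.76, limma adjusted p = 0.287) and 1.33 in Fos (SE 0.47, limma adjusted p = 0.36). The count of 0 thus cannot show that the listed genes had no response. Of the 27 genes, 3 had an unadjusted p under 0.05 in limma, and without replicate 2 of the mice given both agents 0 passed as well. For these 3, too, the share of all probe sets at the unadjusted cut is not given. Vehicle against untreated mice gave 0 of 27 as well, and 0% of all probe sets in each direction. Here 4 genes lay at an unadjusted p under 0.05, Nsdhl, Ebp, Apoe and Cyp46a1, all lower with vehicle, with changes of -0.22, -0.38, -0.22 and -0.17. These 4 are not set against all probe sets at that cut and are not read as a result about the list.

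Further genes of the pathway, 45 in all and no members of the list above, were counted in the same way, and 29 of them were tested. After kainic acid 1 was higher and 5 were lower, and over all probe sets 7.41% were higher and 12.2% lower, so these counts are near the background and nothing is read from them about the list. Elovl5, an elongase of fatty acids, rose by 0.27 (SE 0.06, limma adjusted p = 0.00741). Cyp7b1, which hydroxylates oxysterols, was lower with a change of -0.50 (SE 0.12, limma adjusted p = 0.00913), at 7.50, 7.48 and 7.29 with vehicle and 6.83, 6.94 and 7.01 with kainic acid. Mbtps1, the protease that opens the cleavage of SREBPs, changed by -0.26 (SE 0.06), Erlin1, a membrane protein of the endoplasmic reticulum, by -0.26 (SE 0.07), the sterol carrier Stard5 by -0.29 (SE 0.05) and Gpam, an acyltransferase of glycerolipid synthesis, by -0.25 (SE 0.05). With both agents 4 of the 29 were higher than with kainic acid and 2 lower. Over all probe sets 13.1% were higher and 5.86% lower, so nothing is read from these counts either. The higher ones were Cyp7b1, Mbtps1, Stard5 and Erlin1, with changes of 0.53, 0.30, 0.17 and 0.26. Elovl5 and Gramd1b were the lower ones, with changes of -0.26 and -0.22. The kainic acid arrays stand in both comparisons.

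The cell types that make sterol in the brain were followed by their markers. Of 5 tested astrocyte markers, 7 of oligodendrocytes and 3 of microglia, 0 passed the test after kainic acid, and the median astrocyte shift was -0.08 to 0.03 after kainic acid, against -0.01 to 0.02 after vehicle. Of 5 tested markers of dentate granule cells 3 were lower, where 12.2% of all probe sets were, with median shifts of -0.84 to -0.58 in the kainic acid arrays. The 3 were Prox1, Dsp and Lct, with changes of -0.67, -0.92 and -0.79, whereas C1ql2 (-0.16) and Calb1 (0.00) did not pass. With both agents 3 of the 5 were higher than with kainic acid and 0 lower, where 13.1% of all probe sets were higher. Prox1, Dsp and Lct then differed from vehicle by -0.05, -0.04 and -0.08. Of 3 tested endothelial markers 1 was lower, Slco1a4, with a change of -0.46 (SE 0.13, limma adjusted p = 0.0203). Of the 7 neuron markers 1 was higher, where 7.41% of all probe sets were. This was Gad1, which makes the transmitter GABA, at 8.40, 8.48 and 8.58 with vehicle, 8.93, 9.20 and 8.92 with kainic acid and 8.59, 8.45 and 8.52 with both agents. Gad1 rose by 0.53 (SE 0.07, limma adjusted p = 0.000224) and changed by -0.50 (SE 0.07, limma adjusted p = 0.000519) from kainic acid to both agents. The part of granule cells, endothelium and neurons in the levels of the raised genes was not tested.

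**Figure D4:**
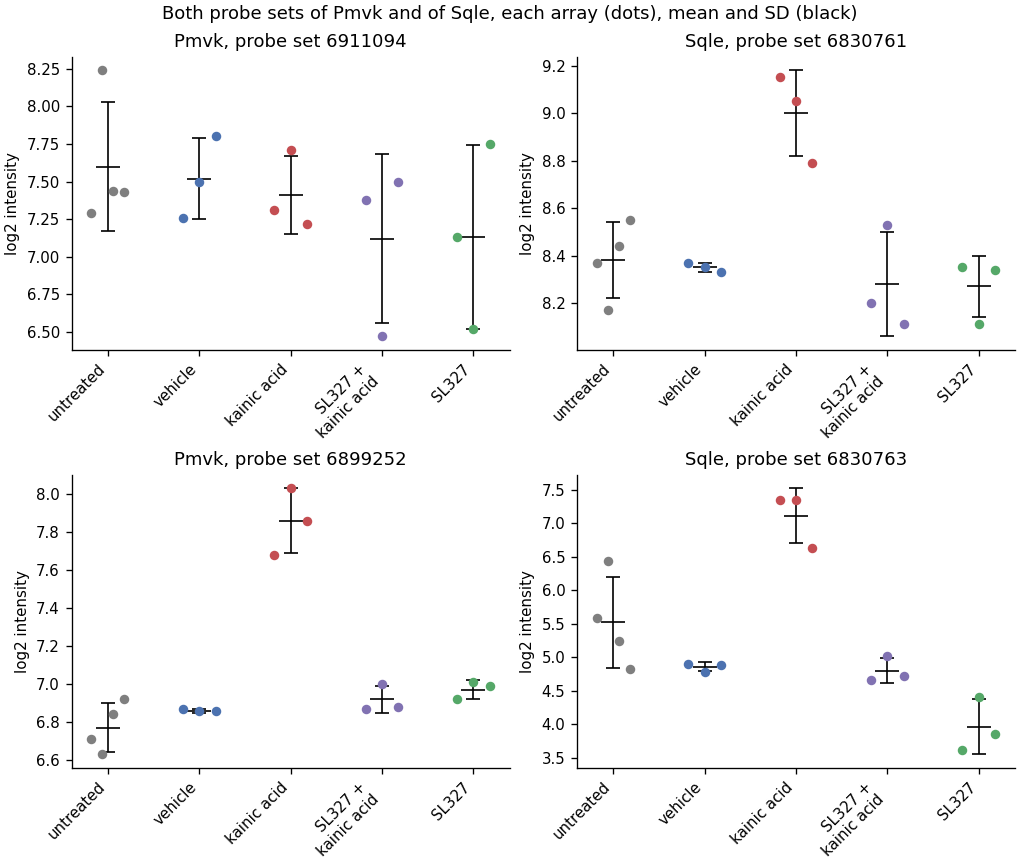
Log2 intensity (vertical axis, a range of its own in each panel) of both probe sets of Pmvk (left) and of Sqle (right) in the 5 groups. Dots are single arrays and black bars the mean and SD. The brighter Pmvk probe set, top left, has arrays spread over more than 1 unit in both groups given SL327, whereas in the other 3 panels the kainic acid arrays are the highest.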

How the data were processed

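Hippocampal RNA of 16 mice was hybridised to Affymetrix mouse exon arrays. The deposited values are log2 intensities that the authors made by RMA with the package oligo (versions not given in the sources used here), and they were used as deposited. The authors' removal of probe sets outside the category main could not be repeated, and arrays from 4 h and 8 h were not analysed here. Of 20372 probe sets, 14704 carried 1 gene name, 713 several and 4955 none. Following the methods, an annotated probe set was kept where 3 or more arrays had it above their median (7.43 to 7.53 over annotated probe sets), which left 8520 probe sets of 7565 genes.

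The means of the 5 groups were fitted in limma 3.58.1 (R 4.3.3) with eBayes, on 11 residual degrees of freedom and a prior worth 3.2. Tests were two-sided, with Benjamini-Hochberg adjustment across the 8520 probe sets and a threshold of 0.05. In the classes, sensitivity to SL327 was an unadjusted p under 0.05, and the p for induction despite SL327 was adjusted among probe sets changed by kainic acid only. Replicates were separate mice, and the number of arrays limits the precision. The members and lists were chosen with earlier results of these data known, so their counts are set beside those of all probe sets. All members are named, each by its probe set of the highest mean over all arrays, and further pathway genes where any comparison called them. Alternatives were other filters and scalings, other estimates of the spread, fits to fewer groups, other controls, 1 value per gene, a replicate block and each array left out in turn. Promoter windows are those of RefSeq for GRCm38.p6. The fit was tested on simulated data.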

Additional observations from a re-analysis of the deposited data

Results flagged for a closer look

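In 7 genes the response to kainic acid with SL327 differed from that without, by the test of the interaction. The values were -1.27 in Msmo1, -1.05 in Cyp51, -0.66 in Hmgcs1, -0.66 in Sc5d, -0.64 in Sqle, -0.61 in Insig1 and -0.55 in Hsd17b7 on the log2 scale.

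In the untreated mice replicate 2 stood apart from the other 3 in 2 of the 27 genes, by a gap of more than 0.829 of the group's range, the limit of Dixon's test for 4 samples. The gap was 0.848 of the range in Pmvk, with 8.24 against 7.29 to 7.44, and 0.856 in Scd2, with 11.61 against 11.40 to 11.43. Chance alone marks about 1 in 20 groups in this way. Groups of 3 were not screened.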

How the results depend on the processing

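Over 24 pairs of a gene and a comparison in which it was called, 666 values were computed under alternatives, of which 636 kept direction and call, 30 kept the direction but lost the call, and 0 changed sign. The rises of the 8 genes after kainic acid passed the test in all 29 alternatives of each. The lost calls were 13 of the interaction of Sqle, 7 of Npc2, 5 of Mvk and 1 of Hsd17b7 with both agents against kainic acid, and 4 of the interaction of Hsd17b7.

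The count of genes changed by kainic acid was 13 with array weights (11 higher), 14 against untreated mice (9 higher) and 13 against pooled controls (10 higher), and 8 to 12 with 1 array left out (12 without untreated replicate 2). The count for both agents against vehicle was 1 with array weights and 1 against untreated mice. The count for SL327 alone was 6 with array weights, 3 against pooled controls, 0 in the fit of its own groups, 0 with the replicate block, and 0 to 2 with 1 array left out (2 without kainic acid replicate 3). With quantile normalization it was 1, but in the other direction, since Mylip was lower by a change of -0.23 and Npc2 was not called. With 1 array left out, the count was 7 to 9 for both agents against kainic acid and 5 to 8 for the interaction, which was 5 without vehicle replicate 1, vehicle replicate 2 or SL327 replicate 3. Centring each array gave 744 higher and 805 lower probe sets after kainic acid, against 631 and 1042. Shares over all probe sets are not given here for array weights, other controls, fewer groups or an array left out. The larger counts under those settings are thus not read as more of the listed genes responding. The cause of these differences was not tested.

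The labels do not say whether the replicate numbers pair the mice. Deviations of same-numbered arrays correlated at -0.218 to 0.176, and 0 of 10 pairs of groups had every r over 0.1. Such values cannot show whether same-numbered mice were handled together. With the replicate block the counts were 9 for kainic acid, 8 for both agents against kainic acid and 7 for the interaction. Probe sets near or below the filter, as in Idi1 and Fdps, have little signal over background, and how this bears on the size of their changes was not tested.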

Other observations

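Syvn1, a ubiquitin ligase of the endoplasmic reticulum that is no member of the list, was higher with SL327 alone than with vehicle, by 0.35 (SE 0.07, limma adjusted p = 0.0131). Syvn1 was the 1 higher of the 29 tested further pathway genes, where 5.48% of all probe sets were higher. It lay at 7.99, 7.96 and 7.91 with vehicle and at 8.27, 8.30 and 8.35 with SL327, so the groups did not overlap. The interaction was above 0 for Cyp7b1, at 0.70 (SE 0.17, limma adjusted p = 0.0244), and for Stard5, at 0.29 (SE 0.07, limma adjusted p = 0.0233), both outside the list of members. These were 2 of the 29 tested further pathway genes, where 1.98% of all probe sets passed above 0.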
